A study of Mus musculus with 6 samples.

Results

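The 77 genes described here encode proteins of the mitochondrial ribosome. They were taken from the 19938 genes with a probeset of their own on the arrays, by a symbol made of Mrpl (large subunit, 48 genes) or Mrps (small subunit, 29 genes) and a number. RNA came from KSL SLAM cells of mouse bone marrow, a fraction enriched for blood stem cells and sorted as Lineage-, c-Kit+, Sca-1+, CD150+, CD48- and CD41-. Over 7 days the mice were given either PBS or the cytokine G-CSF (granulocyte colony-stimulating factor). G-CSF was injected under the skin at 125 mcg/kg, 2 times a day. There were 3 arrays of either treatment. The RNA of an array was pooled from 5 to 10 mice, with no pool used again, so a value averages over these animals. The labels name no strain, age or genetic change for either group.

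The mitochondrial ribosome translates the few messenger RNAs made from mitochondrial DNA, which encode core subunits of the respiratory chain and of ATP synthase. Its proteins are all encoded in the nucleus, made in the cytosol and imported. The small subunit binds the messenger and decodes it, and the large subunit joins the amino acids and releases the chain beside the inner membrane. Many of its proteins have a counterpart in bacteria, and the others are specific to mitochondria. In blood stem cells, low mitochondrial activity is known to accompany quiescence, and cells that divide or mature are known to raise it.

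Before the values, 4 sequences show examples of the promoters of these genes, a feature that the choice of members did not use. RefSeq promoters (GRCm38.p6, 250 bases before to 50 after the start) were given for 68 of the 77 genes. Shown are the members with the smallest p among those that hold each of 3 motifs in the 120 bases before the start, and the short stretch between the starts of a large-subunit and a small-subunit gene. Capitals mark a motif, and the strand is that of the named gene.
Mrpl32 (chr13:14613038-14613157, minus strand, NRF1 core CGCATGCG, present at 2 places): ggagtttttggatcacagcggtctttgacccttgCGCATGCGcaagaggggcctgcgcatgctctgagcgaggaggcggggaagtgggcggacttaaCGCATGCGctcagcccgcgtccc
Mrpl36 (chr13:73330889-73331008, plus strand, E-box CACGTG and YY1 letters GCCATCTT): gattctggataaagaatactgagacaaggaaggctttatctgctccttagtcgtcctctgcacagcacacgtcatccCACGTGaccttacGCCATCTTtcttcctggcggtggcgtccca
Mrps22 (chr9:98601680-98601799, minus strand, ETS letters CCGGAAGT): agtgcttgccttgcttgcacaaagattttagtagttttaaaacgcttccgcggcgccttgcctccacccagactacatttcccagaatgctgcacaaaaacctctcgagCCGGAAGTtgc
Mrpl46 to Mrps11 (chr7:78783090-78783130, strand of Mrpl46, the 41 bases between both starts, none of these motifs): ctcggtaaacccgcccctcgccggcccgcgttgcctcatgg

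Each motif was searched on both strands in the whole promoter of 300 bases, and the letters of the 4 motifs do not contain each other. YY1 letters (AAGATGGC) were present in 12 of 68 members, against 4.45% of the 11870 genes tested on the arrays that had a promoter. ETS letters (CCGGAAGT), which GABP and other ETS factors are known to bind, were present in 12 of 68, against 7.36%. The NRF1 core (CGCATGCG) was present in 7 of 68, against 3.62%. The E-box (CACGTG), which MYC and related factors are known to bind, was present in 5 of 68, against 10.6%. Among the members tested on the arrays, each motif was also counted by the sign of the G-CSF minus PBS difference. ETS letters were in 8 of 50 members with a negative difference and in 3 of 17 with a positive one. YY1 letters were in 9 of 50 and 2 of 17. The NRF1 core was in 5 of 50 and 2 of 17, and the E-box in 3 of 50 and 2 of 17. These are matches of letters in a window, and no binding was measured.

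Of the 68 members, 26 had another gene starting on the opposite strand, back to back and within 1000 bases (38.2%, against 16.8% of the 11870 genes tested). The neighbours include genes with and without a mitochondrial role, and the shares of these kinds were not compared. Mrps12 starts 147 bases from Sars2, the mitochondrial seryl-tRNA synthetase. Mrpl43 starts 116 bases from Twnk, the helicase of mitochondrial DNA. Mrpl47 starts 308 bases from Ndufb5, a subunit of respiratory complex I. Mrpl49 starts 192 bases from Fau, which encodes a cytosolic ribosomal protein, Mrpl40 113 bases from the histone chaperone gene Hira, and Mrpl18 238 bases from Tcp1, a subunit of the cytosolic chaperonin.

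The labelled cell type was read against its markers first. Probesets of 18 of 19 stem cell gate and identity genes passed the filter on low signal (a mean log2 intensity over 5.15). The transcription factors Hlf (10.5 with PBS and 10.3 with G-CSF), Meis1 and Mllt3 were well above it. For Cd48, a gene the gate selects against, 2 of 6 arrays lay under this limit. Itga2b, which encodes CD41 and is also selected against, had 6.18 to 6.51, with 0 arrays under it. Slamf1 (CD150), which the gate selects for, had 5.95 to 6.65. Ly6a, which encodes Sca-1, was not among the 18 genes. Of the 18 genes, 16 had a negative difference between G-CSF and PBS arrays, Cd48 (-0.11) and Itga2b (-0.16) among them. The median of the 18 was -0.21 and the mean -0.28 on the log2 scale. Array means ran from 7.68 to 7.89 with PBS and from 7.29 to 7.70 with G-CSF. Hlf, Meis1 and Mllt3 differed by -0.16, -0.06 and -0.34. Of 23 tested markers of mature neutrophils, 21 had every G-CSF array above every PBS array, where 5.77% of all genes did. Their mean log2 level was 7.22 to 7.82 with PBS and 9.0 to 9.77 with G-CSF. For markers of granulocyte-monocyte progenitors, 11 of 16 lay so without overlap, beside the same 5.77% (means 6.63 to 7.02 and 7.57 to 8.24). Genes of the G2/M phase had array means of 6.10 to 6.35 with PBS and 6.59 to 6.64 with G-CSF, and megakaryocyte markers had 6.45 to 6.68 and 6.03 to 6.11. Kit, the receptor the sort selects for, had 10.3, 9.92 and 9.85 with PBS and 9.28, 9.21 and 8.63 with G-CSF, so its groups did not overlap (difference -0.98, SE 0.23, limma adjusted p = 0.374). The part of any of these in the results below was not tested. In such sorted but mixed RNA, fewer cells of a type and less RNA per cell cannot be told apart. Over all 14994 genes tested, array means ran only from 6.57 to 6.68.

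The comparison asked whether G-CSF treatment of the mouse altered transcripts of the mitochondrial ribosome in this sorted fraction. Most had lower average signal with G-CSF, and no single gene passed the test. Of the 77 genes, 76 passed the filter, and 58 of these had a negative and 18 a positive difference (G-CSF minus PBS, log2). The median was -0.21, with a middle range from -0.41 to -0.03, while the median over all genes tested was 0.00. After adjustment over all genes by limma, 0 of 76 members passed at 0.05 (smallest adjusted p = 0.681), where 0.0267% of all genes did. At an unadjusted p under 0.05, 2 members were lower and 0 higher, and the background was 3.3% lower and 2.73% higher, so neither count stands above it. The groups did not overlap in 4 members, all with the G-CSF arrays lower (5.05% of all genes lay so), and in 0 members were the G-CSF arrays higher without overlap (5.77% of all genes). Mrps27, a small-subunit protein specific to mitochondria, was the member under the filter. In a fit with no filter it differed by 0.17 (SE 0.23), with arrays from 4.66 to 5.36.

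**Figure D1:**
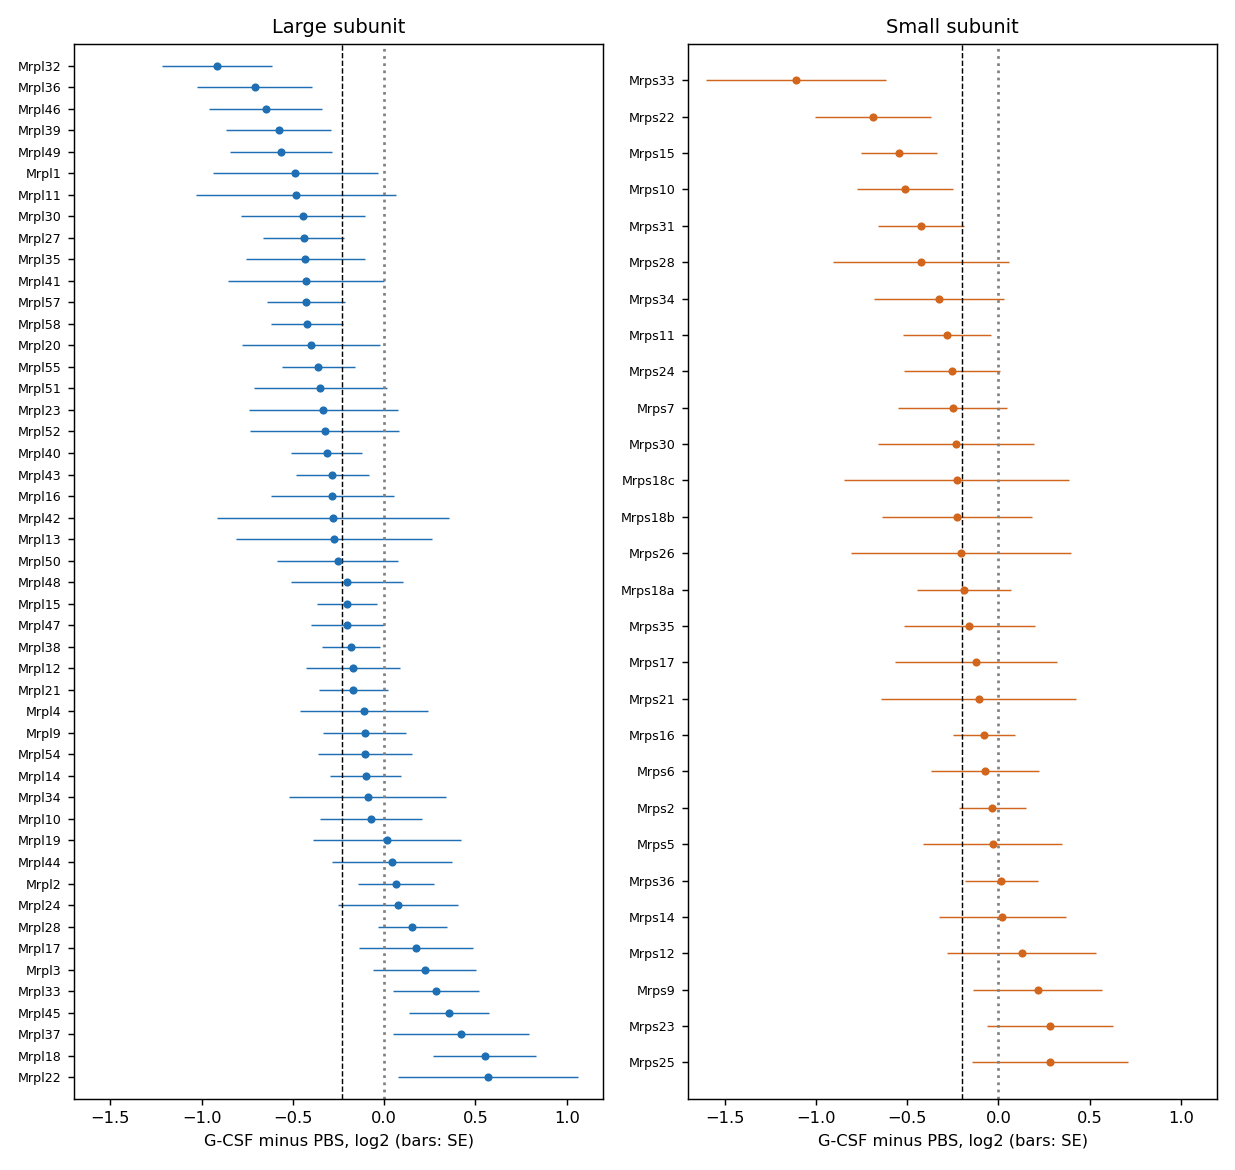
Difference between G-CSF and PBS arrays (log2, x axis) for each of the 48 large-subunit and 28 small-subunit genes tested (y axis), with limma's SE as bars and the median of the subunit as a dashed line. Both medians lie left of zero (-0.23 and -0.20), and the differences run from -0.92 to 0.57 in the large and from -1.11 to 0.28 in the small subunit.

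The large subunit had a median difference of -0.23 (36 of 48 genes negative) and the small subunit one of -0.20 (22 of 28 negative). The mean over large-subunit genes was 7.02, 7.19 and 7.57 in PBS replicates 1, 2 and 3, and 6.77, 7.18 and 7.25 in the G-CSF replicates. The mean over small-subunit genes was 6.99, 7.13 and 7.61 with PBS, and 6.69, 7.18 and 7.28 with G-CSF. In both subunits PBS replicate 3 was the highest array and G-CSF replicate 1 the lowest, and the other 4 arrays lay between them with the groups overlapping. Within an array the subunits stayed close. The large minus small mean was 0.02 ± 0.05 with PBS and 0.02 ± 0.06 with G-CSF (SD, n = 3), from -0.04 in PBS replicate 3 to 0.09 in G-CSF replicate 1, and the group difference of 0.006 was smaller than either SD.

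**Figure D2:**
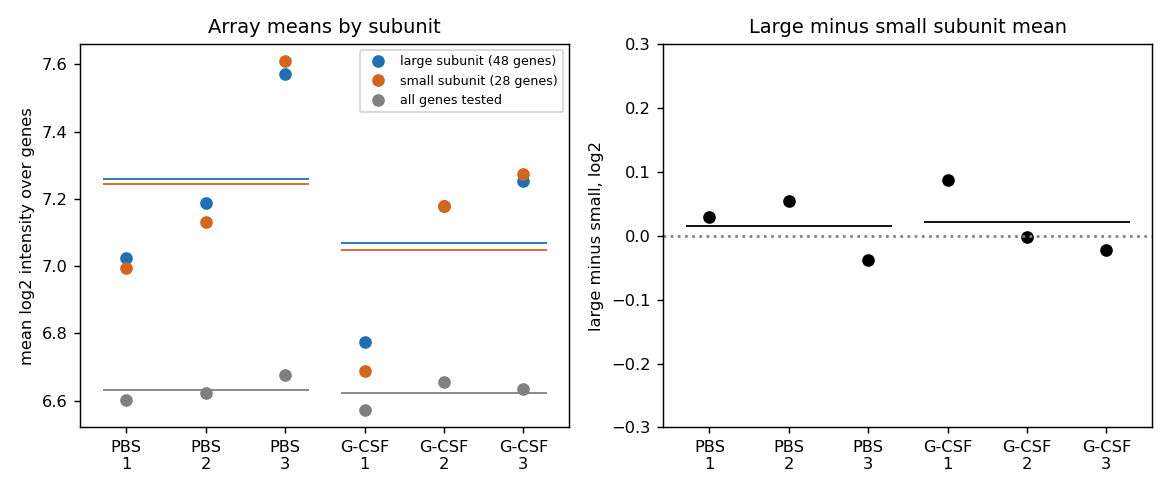
Left, mean log2 intensity per array (y axis) over the large subunit, the small subunit and all genes tested, with lines at the group means. Right, the large minus small subunit mean per array (log2), which stays between -0.04 and 0.09 while the subunit means range from 6.69 to 7.61.

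The symbols do not fully give the subunit. Structures of the mammalian mitochondrial ribosome place Mrps30 and Mrps18a in the large subunit, and Mrps36 is now assigned to the 2-oxoglutarate dehydrogenase complex. With these 3 genes placed so, a grouping chosen after the values were seen, the medians were -0.22 (50 genes, large) and -0.21 (25 genes, small). The large minus small mean was then -0.10 ± 0.03 with PBS and -0.09 ± 0.09 with G-CSF (SD, n = 3). It ran from -0.17 in G-CSF replicate 2 to 0.01 in G-CSF replicate 1, and the group difference was 0.01. Proteins with a bacterial counterpart had a median of -0.17 in the large (30 genes) and -0.12 in the small subunit (16 genes). Proteins specific to mitochondria had -0.30 (18 genes) and -0.23 (9 genes). The 9 include Mrps18b, whose own difference is this median, although the Mrps18 paralogs descend from bacterial S18. Mrpl55 was counted with the bacterial counterparts, which is not settled, and with it counted as specific to mitochondria the large-subunit medians were -0.17 and -0.32. Whether the classes differ was not tested.

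The spread between arrays of the same group was wide for these genes. The residual SD of the median member was 0.47 log2 units, against 0.26 over all genes tested and 0.24 over 59 cytosolic ribosomal protein genes. Much of it ran in common. PBS replicate 3 was the highest of the 6 arrays in 36 of 76 members (47.4%, against 18.2% of all genes), and the lowest in 1, Mrps6. G-CSF replicate 1 was the lowest in 38 members (50%, against 20.1%) and the highest in 0. Among PBS arrays alone, replicate 3 was the highest in 30 of 48 large-subunit and 18 of 28 small-subunit genes. Among G-CSF arrays alone, replicate 1 was the lowest in 32 of 48 and 20 of 28. PBS replicate 1 was the lowest PBS array in 45 of 76 members, against 35.6% of all genes. G-CSF replicate 3 was the highest G-CSF array in 37 of 76, against 32.7%. The mean over members thus rose with the replicate number in both groups (7.01, 7.17 and 7.58 with PBS, 6.74, 7.18 and 7.26 with G-CSF). Whether arrays of the same number share a batch was not tested.

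**Figure D3:**
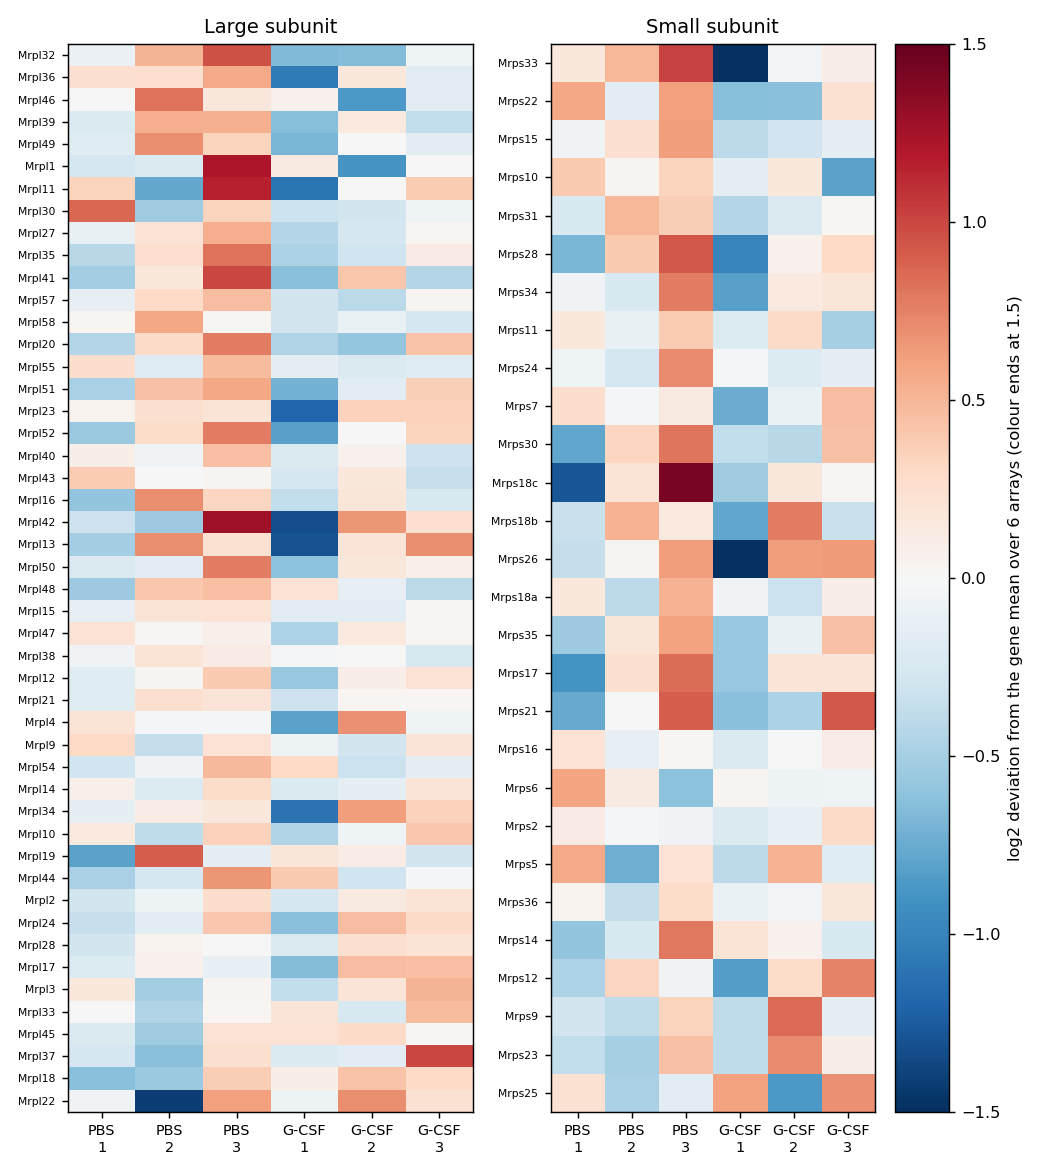
Each member's log2 value on each array minus its mean over the 6 arrays (colour, capped at 1.5), for large-subunit and small-subunit genes ordered by their difference. PBS replicate 3 is the highest array in 36 members and G-CSF replicate 1 the lowest in 38, across both panels.

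The negative median rested on PBS replicate 3 and G-CSF replicate 1. Without PBS replicate 3 the median over the members was -0.03 (45 of 76 negative), and without G-CSF replicate 1 it was -0.04 (45 negative). The small-subunit median was 0.03 without the former and 0.004 without the latter, and the large-subunit median was -0.04 and -0.08. Without PBS replicate 1 the median over the members was -0.335. No member passed the limma test after adjustment in any of these fits.

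**Figure D4:**
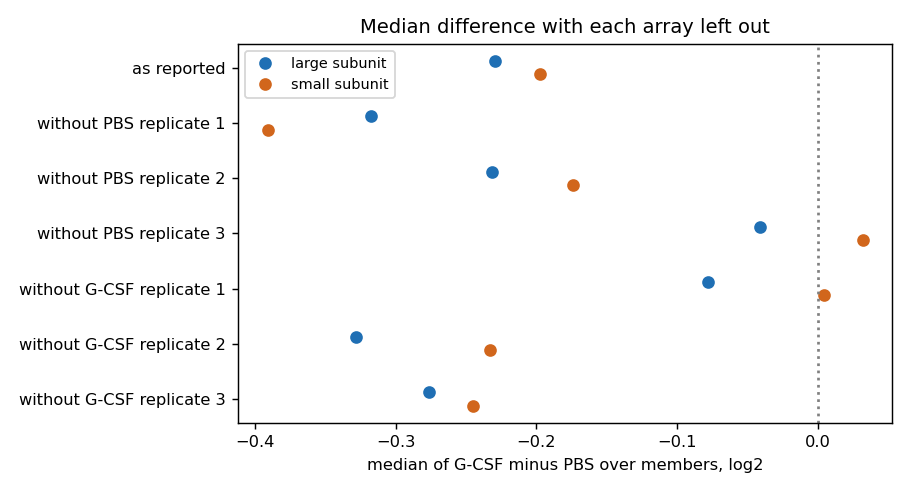
Median of the G-CSF minus PBS difference (log2, x axis) over large-subunit and small-subunit genes, with all arrays and with each array left out in turn (y axis). Leaving out PBS replicate 3 or G-CSF replicate 1 brings both medians to between -0.08 and 0.03.

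Among large-subunit proteins, Mrpl32 had the smallest p. It is the counterpart of bacterial L32 and is known to be cut to its mature form by the m-AAA protease of the inner membrane. Its log2 values were 6.75, 7.35 and 7.80 in the PBS arrays and 6.18, 6.19 and 6.78 in the G-CSF arrays. Only PBS replicate 1 and G-CSF replicate 3 overlapped, by a narrow margin. The difference was -0.92 (SE 0.30, 95% interval -1.62 to -0.21, limma unadjusted p = 0.0183, adjusted p = 0.681). Leaving out single arrays moved it between -1.19 and -0.66.

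Mrpl36, the counterpart of bacterial L36, had 6.37, 6.38 and 6.70 with PBS and 5.07, 6.29 and 5.97 with G-CSF. The groups did not overlap, and G-CSF replicate 1 stood lowest, under the filter's limit. The difference was -0.71 (SE 0.32, limma adjusted p = 0.851), and -0.35 was the smallest size it took when arrays were left out. Mrpl58, also called ICT1, is a peptidyl-tRNA hydrolase built into the large subunit that frees stalled ribosomes. It had 6.87, 7.43 and 6.88 with PBS and 6.57, 6.75 and 6.59 with G-CSF, again with no overlap, and all G-CSF arrays were close to each other. It differed by -0.42 (SE 0.20, limma adjusted p = 0.855), and by -0.24 without PBS replicate 2, its highest array.

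The proteins Mrpl46, Mrpl39 and Mrpl49 are specific to mitochondria. Mrpl46 had 6.66, 7.47 and 6.83 with PBS and 6.73, 5.79 and 6.49 with G-CSF (difference -0.65, SE 0.31). Here G-CSF replicate 2, not replicate 1, was the lowest array. Mrpl39 had 8.85, 9.62 and 9.60 with PBS and 8.43, 9.21 and 8.70 with G-CSF (difference -0.58, SE 0.29). Mrpl49 had 7.23, 8.12 and 7.75 with PBS and 6.73, 7.42 and 7.26 with G-CSF (difference -0.56, SE 0.28). In all 3 genes the groups overlapped. Without PBS replicate 2 the difference was -0.41 in Mrpl46 and -0.36 in Mrpl49. Without G-CSF replicate 2 it was -0.38 in Mrpl46, and without G-CSF replicate 1 it was -0.36 in Mrpl49.

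Of the 12 large-subunit genes with a positive difference, the smallest p belonged to Mrpl18, the counterpart of bacterial L18. It had 7.20, 7.28 and 8.20 with PBS and 7.93, 8.27 and 8.13 with G-CSF. PBS replicate 3 lay among the G-CSF arrays and the other PBS arrays below them. The difference was 0.55 (SE 0.28, limma adjusted p = 0.884) and ran from 0.37 to 0.87 with arrays left out. Mrpl45, which anchors the ribosome to the inner membrane at the exit tunnel, had 5.82, 5.50 and 6.26 with PBS and 6.26, 6.33 and 6.06 with G-CSF (difference 0.35, SE 0.22), and its difference ran from 0.18 without PBS replicate 2 to 0.55 without PBS replicate 3. Mrpl33, the counterpart of bacterial L33, differed by 0.28 (SE 0.24), from 0.12 without G-CSF replicate 3 to 0.47 without G-CSF replicate 2, and by 0.13 without PBS replicate 2. Mrpl22, which lines the exit tunnel, differed by 0.57 (SE 0.49), with 4.32 in PBS replicate 2 against 5.66 to 6.43 in the other arrays, and without that array the difference was 0.01. It was 0.36 without G-CSF replicate 2 and 1.02 without PBS replicate 3.

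Among small-subunit proteins, Mrps15, the counterpart of bacterial S15, had the smallest p. Its values were 7.32, 7.62 and 8.01 with PBS and 6.99, 7.09 and 7.24 with G-CSF. The groups did not overlap, and the G-CSF arrays were the closer to each other. The difference was -0.54 (SE 0.21, 95% interval -1.03 to -0.05, limma unadjusted p = 0.0341, adjusted p = 0.761), and it stayed between -0.71 and -0.36 with arrays left out.

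Mrps33, a small-subunit protein specific to mitochondria, had the largest negative difference of all members. It had 9.33, 9.66 and 10.2 with PBS and 7.45, 9.13 and 9.27 with G-CSF. Its groups did not overlap, and G-CSF replicate 1 was far below the other arrays. The difference was -1.11 (SE 0.49, limma adjusted p = 0.851), and without G-CSF replicate 1 it was -0.53. Its other probeset differed by -0.98, but there the groups overlapped (9.13 in PBS replicate 1 and 9.21 in G-CSF replicate 3). The 2 probesets correlated at 0.997 over the arrays.

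Mrps22, known from inherited respiratory chain deficiency, had 7.45, 6.70 and 7.48 with PBS and 6.22, 6.24 and 7.10 with G-CSF (difference -0.69, SE 0.32, limma adjusted p = 0.855). G-CSF replicate 3 lay above PBS replicate 2, so the groups overlapped. Mrps10 differed by -0.51 (SE 0.26), and by -0.24 without G-CSF replicate 3. Mrps31 differed by -0.43 (SE 0.24), from -0.65 without PBS replicate 1 to -0.28 without PBS replicate 2. Mrps11 differed by -0.28 (SE 0.24), from -0.49 without G-CSF replicate 2 to -0.10 without G-CSF replicate 3, and by -0.16 without PBS replicate 3. The small-subunit genes with a positive difference and the smallest p were Mrps23 (0.28, SE 0.35), Mrps25 (0.28, SE 0.43), Mrps9 (0.21, SE 0.35) and Mrps12 (0.13, SE 0.41), all with overlapping groups. Leaving out any of PBS replicates 1, 2 and 3 or G-CSF replicates 1 and 2 moved the Mrps23 difference by over 1.5 times, from 0.0022 without G-CSF replicate 2 to 0.57 without PBS replicate 3. Any array but PBS replicate 3 did so for Mrps25, from 0.0111 without G-CSF replicate 3 to 0.79 without G-CSF replicate 2.

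**Figure D5:**
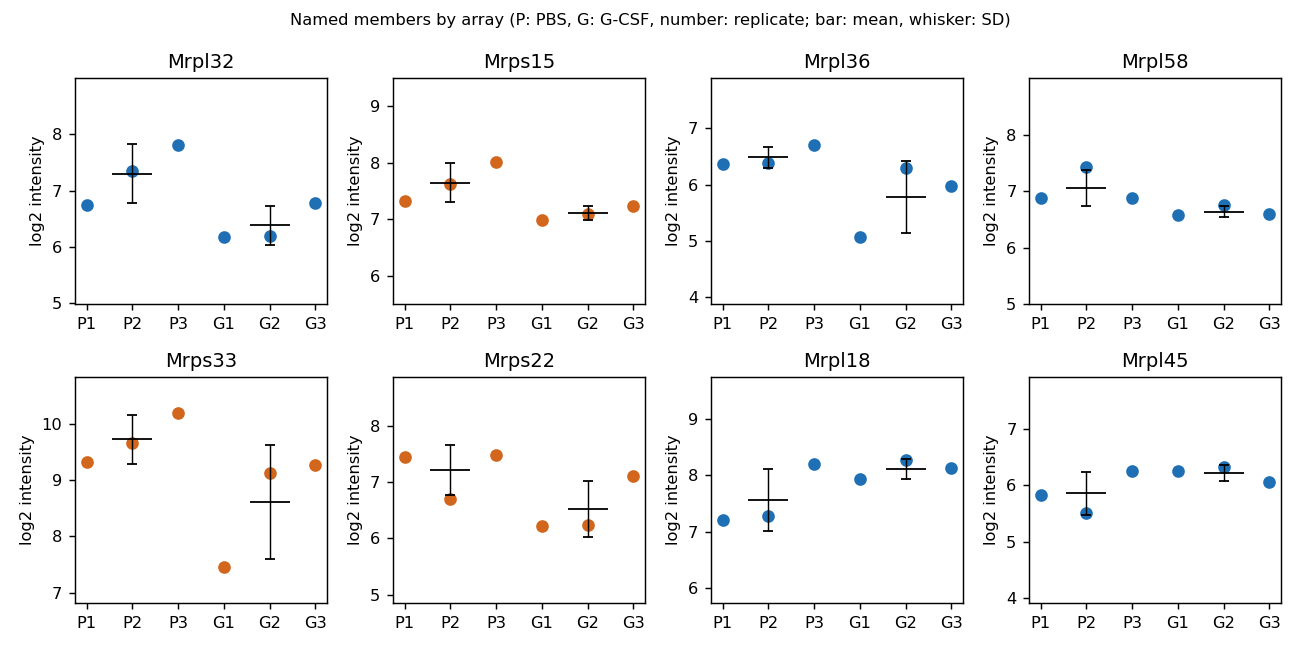
Log2 intensity (y axis, each panel 4 log2 units high) of 8 members on each array (large subunit blue, small subunit orange), with the group mean as a bar and the SD as a whisker, n = 3. The G-CSF arrays lie below the PBS arrays without overlap in Mrps15, Mrpl36, Mrpl58 and Mrps33, and the groups overlap in Mrpl32, Mrps22, Mrpl18 and Mrpl45.

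Members with well known single functions were read whatever their values. Mrpl12, which is known to bind the mitochondrial RNA polymerase, differed by -0.17 (SE 0.26), with a 95% interval from -0.78 to 0.43. Mrps12, a protein of the decoding centre and the counterpart of bacterial S12, had 7.93, 8.71 and 8.34 with PBS and 7.56, 8.66 and 9.14 with G-CSF, so both the lowest and the highest array were G-CSF arrays. Mrps16, known from inherited respiratory chain deficiency, had the tightest values of the genes in this paragraph, 8.35, 8.02 and 8.17 with PBS and 7.92, 8.13 and 8.25 with G-CSF. Its difference was -0.08 (SE 0.17), with a 95% interval from -0.48 to 0.32. Mrpl3 (0.22, SE 0.28, from 0.0155 without PBS replicate 2 to 0.46 without G-CSF replicate 1) and Mrpl44 (0.05, SE 0.33), both known from inherited cardiomyopathy, had overlapping groups.

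The 3 Mrps18 paralogs descend from bacterial S18 and sit at different places in the ribosome. Mrps18a differed by -0.19 (SE 0.26), Mrps18b by -0.23 (SE 0.41) and Mrps18c by -0.23 (SE 0.62). Mrps18c had among the widest spreads of any member, with 7.12, 8.60 and 9.82 in the PBS arrays and 7.86, 8.57 and 8.41 in the G-CSF arrays. Mrpl42 (8.02, 7.78 and 9.60 with PBS, 6.99, 8.99 and 8.58 with G-CSF), Mrps26 (6.69, 7.09 and 7.68 with PBS, 5.47, 7.68 and 7.69 with G-CSF) and Mrpl11 (7.47, 6.37 and 8.30 with PBS, 6.04, 7.13 and 7.52 with G-CSF) were as variable. In each of these 4 genes the arrays of a single treatment lay farther apart than the group means of any member did. The Mrpl11 difference of -0.48 was -0.0232 without PBS replicate 3 and -0.99 without PBS replicate 2. Mrps30 differed by -0.23 (SE 0.43).

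For 8 members the arrays carried 2 probesets with that symbol alone, and the brighter was used. In 6 of them both probesets had the same sign. For Mrpl51 they disagreed, with -0.35 in the brighter and 0.35 in the dimmer, and for Mrps5 they lay on either side of zero (-0.03 and 0.05). Mrpl53 shares its probeset with Ccdc142 and is not analysed here.

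Proteins of the ribosome that carry other names had a negative difference in 4 of 4 genes, from -0.15 to -0.05. PBS replicate 3 was the highest array in all 4, against 18.2% of all genes. Dap3, a GTP-binding protein of the small subunit, differed by -0.14 (SE 0.24) and Ptcd3 by -0.14 (SE 0.23), and the 4 such genes had a median of -0.14. Mitochondrial translation factors had a median of -0.13 (9 of 15 negative). The elongation factor Tufm differed by -0.31 (SE 0.19) and the release factor Mtrf1l by -0.59 (SE 0.27). At an unadjusted limma p under 0.05, 0 of the 15 passed, where 3.3% of all genes were lower and 2.73% higher. Genes of ribosome assembly and rRNA modification had a median of -0.10, with 18 of 26 negative. At that p, 3 of the 26 were lower and 0 higher, beside the same 3.3% and 2.73% of all genes. Rbfa, which matures the small subunit, had 7.29, 7.52 and 7.29 with PBS and 6.98, 6.50 and 6.60 with G-CSF (difference -0.67, SE 0.18, limma adjusted p = 0.477). Its groups did not overlap, and PBS replicate 3 was not its highest array. Malsu1, an assembly factor of the large subunit, had 9.82, 10.6 and 10.2 with PBS and 8.35, 8.66 and 10.01 with G-CSF (difference -1.20, SE 0.44, limma adjusted p = 0.749).

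Mitochondrial aminoacyl-tRNA synthetases and the related amidotransferase had a median of -0.11, with 16 of 21 negative. At an unadjusted limma p under 0.05, 2 of the 21 were lower, where 3.3% of all genes were. Gatc, an amidotransferase subunit, had 6.93, 7.64 and 7.59 with PBS and 6.61, 6.34 and 6.65 with G-CSF, with no overlap (difference -0.85, SE 0.23, limma adjusted p = 0.474). Rars2, the arginyl-tRNA synthetase, differed by -1.24 (SE 0.48). For mitochondrial DNA maintenance and transcription the median was -0.13 (15 of 23 negative). At an unadjusted limma p under 0.05, 1 of the 23 was lower and 1 higher, beside 3.3% and 2.73% of all genes. Polg2, the accessory subunit of the mitochondrial DNA polymerase, differed by 0.42 (SE 0.17), with every G-CSF array above every PBS array. The poly(A) polymerase Mtpap differed by -0.84 (SE 0.34), with overlapping groups. Mitochondrial tRNA processing genes had a median of -0.32 (8 of 13 negative), with the CCA-adding enzyme Trnt1 at -0.51 (SE 0.23) and the nuclease Elac2 at 0.32 (SE 0.17). Without overlap, 1 of the 13 was lower (Trnt1) and 1 higher (Elac2), beside 5.05% and 5.77% of all genes. None of these related genes passed after adjustment over all genes by limma.

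Cytosolic ribosomal proteins, which make up the other ribosome of the cell, had the same highest and lowest array. Their mean was 11.2, 11.3 and 11.4 in the PBS and 10.8, 11.2 and 11.1 in the G-CSF arrays, again with PBS replicate 3 highest and G-CSF replicate 1 lowest. Their median difference was -0.25, with 57 of 59 genes negative, against 58 of 76 mitochondrial ones. In 15 of 59 genes the G-CSF arrays were lower without overlap, where 4 of 76 mitochondrial ones and 5.05% of all genes were. The count of mitochondrial genes is thus near the share over all genes. Whether the 2 groups of genes differ in this was not tested.

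Neighbours that start back to back with a member gave 22 pairs with both genes tested. Both genes had the same sign in 14 of them, counting the pair Mrpl46 and Mrps11 from both sides. Of the 22 neighbours, 14 had a negative difference (median -0.13), as did 58 of the 76 members tested, against 49.7% of all genes. With most genes on both sides negative, many pairs share a sign whether or not they are linked. Whether pairs shared a sign more often than that was not tested. Mrpl43 (-0.28) and Twnk (-0.42, SE 0.25), Mrpl40 (-0.32) and Hira (-0.31, SE 0.18), and Mrps12 (0.13) and Sars2 (0.10, SE 0.15) lay on the same side of zero. Mrpl18 (0.55) and Tcp1 (-0.14, SE 0.27), and Mrpl27 (-0.44) and Eme1 (0.35, SE 0.16), lay on opposite sides. None of these genes passed after adjustment by limma.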

How the data were processed

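RNA was amplified with the NuGen Ovation system and hybridised to MoGene 1.0 ST arrays, per the labels' protocols. Per the submitters' processing notes, RMA made the deposited intensity values of the 35554 probesets. They are linear (2.70 to 19069), so log2 was taken. Not given in the sources used here are its software and the arrays it took together. Only the 21789 probesets with 1 gene symbol in the platform annotation were used, and the symbols of all 85 member probesets matched RefSeq (GRCm38.p6). The lowest 25% by mean over all arrays (log2 up to 5.15) were left out, and the brightest probeset stood for a gene, which left 14994 genes. All were fitted with limma 3.58.1 (R 4.3.3, lmFit and eBayes, 6 arrays, no covariate), two-sided, with Benjamini-Hochberg adjustment over all genes and a threshold of 0.05. The fit was run on simulated data only with changes larger than any member's difference and with noise independent between genes. That run does not show whether differences of the size seen here could be detected. Depth does not apply to arrays, and 3 arrays per group limit the precision.

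Members and lists were chosen with earlier results of these data known, so lists carry no test. Named were, per subunit, up to 6 members with negative and 4 with positive differences of smallest p, the 2 with the widest spread, 13 genes regardless of value, and up to 2 genes per related list. Chosen with their values in view were Mrps5, Mrps6, Mrps27, Mrpl27, Mrpl40, Mrpl43, Mrpl47, Mrpl51, Mrpl55, the neighbouring genes and the stem cell markers named. The classes by bacterial counterpart and by structure come from general knowledge and were added at that stage too. Alternatives changed the filter, normalization, variance model, array weights, probeset rule, replicate block and arrays used, 1 at a time. Deviations of same-numbered arrays from their group means correlated over genes at 0.29, 0.02 and 0.19 for replicates 1, 2 and 3. G-CSF replicate 2 correlated more with PBS replicate 3 (0.10). Although 5 of 6 arrays correlated best with their own number, the main fit did not pair them. Whether the numbers mark pairs was not tested.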

Additional observations from a re-analysis of the deposited data

How the results depend on the processing

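The member median stayed negative in all 14 alternatives run, from -0.335 without PBS replicate 1 to -0.03 without PBS replicate 3, and 0 members passed after adjustment by limma in any of them (smallest adjusted p = 0.279, with the replicate block). The large minus small difference moved by less than its SD of 0.05 in each. Counts at an unadjusted p under 0.05 varied more. They were 4 lower and 1 higher with quantile normalization again (3.36% and 3.01% of all genes), and 9 lower with the replicate number as a block, under which 4.92% of all genes were lower. The replicate block left the medians as they were, and 5 of 6 arrays correlated best with their own number. With single arrays left out, 0 to 9 members were lower and 0 to 2 higher at that p (2.37% to 4.47% and 2.19% to 3.35% of all genes). Without overlap, 5 to 21 lay lower and 0 to 6 higher (9.10% to 11.6% and 9.88% to 11.2% of all genes). Without PBS replicate 1 the 21 members lower stood beside 11.6% of all genes. Of 31 named members in 432 alternative fits, 17 values in 11 members changed sign, all with an array left out. The differences then ran from -0.32 to 0.0697 in Mrpl12, -0.68 to 0.32 in Mrpl42, -0.19 to 0.39 in Mrpl44, -0.16 to 0.46 in Mrps9, -0.21 to 0.57 in Mrps12, -0.16 to 0.0109 in Mrps16, -0.43 to 0.0230 in Mrps18a, -0.67 to 0.10 in Mrps18b, -0.93 to 0.42 in Mrps18c, -0.58 to 0.53 in Mrps26 and -0.68 to 0.11 in Mrps30. The cause was not tested.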
